A study of Homo sapiens with 4 samples.

Results

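A set of 50 genes of mitosis, the phase in which a cell separates its copied chromosomes and divides, was followed through 6 h of niclosamide in ovarian cancer spheres. The genes were listed by name for their roles, out of 18665 genes with a named probe, and had 74 probes between them on the array. Those roles were cyclins and CDK1, mitotic kinases, the spindle checkpoint, kinesins, kinetochore, spindle and cytokinesis genes. The list was made with earlier results of these data known, and a rise at 4 h was named beforehand. A detection p under 0.01 against the negative controls of an array was called detected, and by that rule all 50 genes had a probe detected on all 4 arrays, among 9771 genes detected on at least 1. The samples were Cp70sps cells, sphere-forming cells of the Cp70 ovarian cancer line selected for excluding the dye Hoechst and called ovarian tumor-initiating cells in the labels. These cells grew in low-attachment plates without serum, with insulin, bFGF and EGF, and received 3 µM niclosamide, an anthelmintic that uncouples mitochondrial respiration, for 0, 2, 4 or 6 h. Each time was 1 array of total RNA on an Illumina bead chip of 48803 probes, so the 0 h array was the only untreated one, and no untreated array of a later time was analysed here. With 1 array per time no value has a replicate error and no test was made. Every difference below is a comparison of 2 arrays, and exposure time, time in culture and the array itself cannot be told apart.

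The arrays were alike in depth, with 13797 to 14461 probes detected, the most at 4 h, and a median signal of 62.4 to 66.0 intensity units. Of 8 epithelial markers, 5 were detected on at least 1 array, among them KRT18, KRT19, MUC1 and EPCAM on all 4, whereas 0 of 6 ovarian carcinoma markers (PAX8, WT1, MUC16, MSLN, WFDC2 and FOLR1) were detected, WFDC2 having no named probe. Of 8 endothelial and fibroblast markers, 4 were detected, COL1A2, COL3A1, DCN and LUM, each on all 4 arrays. PECAM1, VWF, CDH5 and COL1A1 were not detected. On the brightest probes of the detected 4, log2 differences for 4 h minus 0 h lay between -0.20 and 0.32. A second COL1A2 probe gave -0.35, and a second DCN probe was detected at 0 h alone. Of 6 leukocyte markers, 1 was detected, CD68.

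Entry into mitosis is driven by cyclins A and B bound to the kinase CDK1, which the CDC25 phosphatases switch on. PLK1, the Aurora kinases and spindle motors of the kinesin family then build the spindle, while the checkpoint kinases and MAD2 hold back the anaphase-promoting complex until every kinetochore is attached. CDC20 and later FZR1 (CDH1) direct that complex to cyclin B and securin, which ends mitosis. Most of these genes are transcribed in G2 and mitosis, repressed in resting and G1 cells by the DREAM complex and switched on by the MYB-MuvB complex with FOXM1, through promoter elements known as CHR and CCAAT boxes.

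By their median the mitosis genes were a little below their untreated level at 2 h, above it at 4 h and near it at 6 h. For 2 h minus 0 h that median ran from -0.16 to -0.07 over the ways of processing. The median log2 difference over the 50 genes was -0.15 for 2 h minus 0 h, 0.36 for 4 h minus 0 h and -0.05 for 6 h minus 0 h, against -0.02, 0.02 and -0.01 over all 9771 genes. The 4 h array gave the highest of the 4 values in 39 of the 50 genes (21.4% of all genes), the 0 h array in 9 (34.9%), and the 2 h and 6 h arrays in 1 each (22% and 21.8%). A rise at 4 h was named before these counts were made, so they are a description. RNA of a whole culture was measured, so more cells in mitosis and more RNA per cell cannot be told apart. In the plot by role, 7 panels give the genes and the last the medians.

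**Figure D1:**
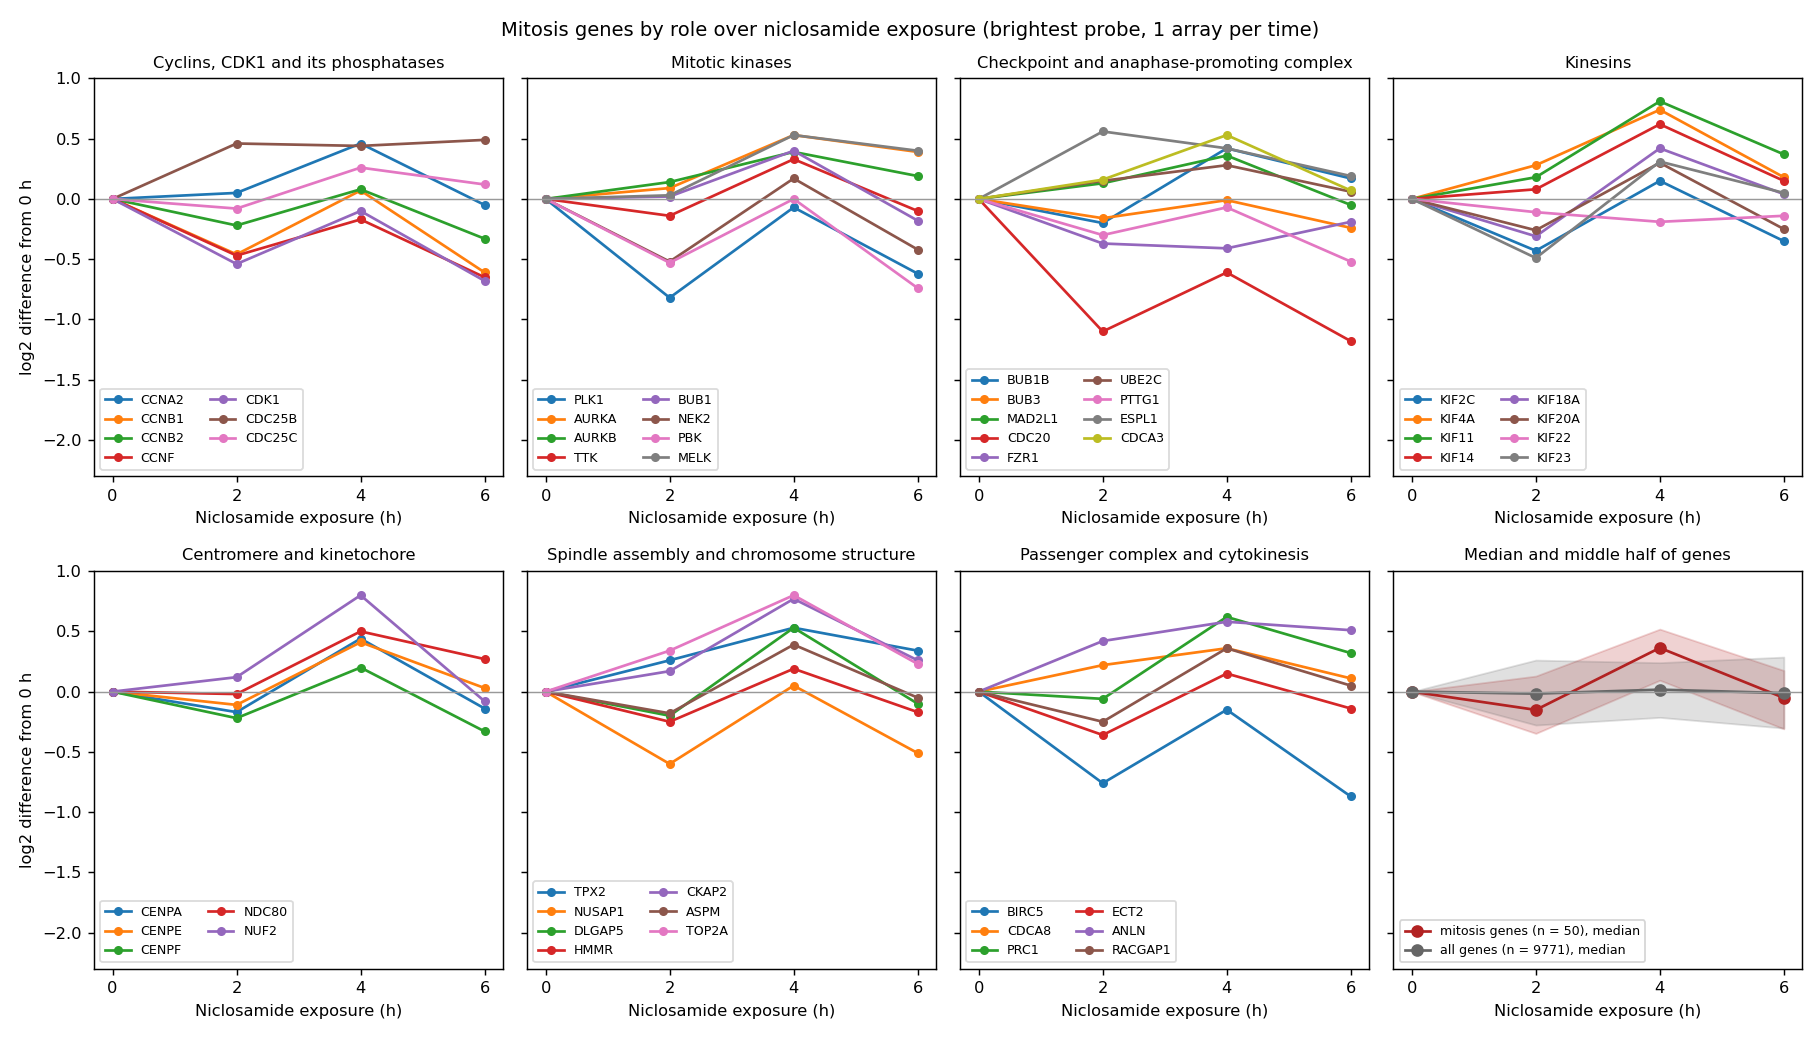
Log2 difference from the 0 h array (vertical axis) against hours of niclosamide (horizontal axis) for the brightest detected probe of each of the 50 mitosis genes, in 7 panels by role, 1 array per time. In the last panel lines are medians and shading the range between quartiles: the mitosis genes have a median of 0.36 at 4 h, and all 9771 genes stay at 0.02.

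Above their 0 h value at 4 h were 41 of the 50 genes (52.1% of all genes). Counted by a log2 difference of at least 0.32, 28 of the 50 genes were higher at 4 h than at 0 h (18.2% of all genes) and 2 were lower (16.9%). The 2, CDC20 and FZR1, were both partners of the anaphase-promoting complex. At a fold of 1.5, 7 were higher (4.96%) and 1 lower (4.69%). The 2 h and 0 h arrays gave 4 genes higher (20.7%) and 13 lower (21.9%), and the 6 h and 0 h arrays 6 higher (22.7%) and 13 lower (23.6%). Both counts of 13 lower genes, 26% of the 50, were near the shares of all genes. The count of 6 higher at 6 h was 13 under median scaling (30.2% of all genes) and 3 with the mean over probes (21.5%). These 3 comparisons share the 0 h array.

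The steps between the treated arrays were more uniform. Against 2 h, the 4 h array was higher in 46 of the 50 genes (54.8% of all genes) and higher by at least 0.32 in 36 (13.9%), with a median log2 difference of 0.48 (0.03 over all genes). Lower by that much were 0 genes (12.6%), and 15 were higher by at least 1.5-fold (2.44%). Against 4 h, the 6 h array was lower in 47 genes (54.1%) and lower by at least 0.32 in 31 (10.6%), with a median of -0.44 (-0.03 over all genes). By 1.5-fold 6 were lower (1.52%), and 0 genes were higher by at least 0.32 (10.1%). Both steps use the 4 h array. For 6 h minus 2 h, which does not, the median was 0.05 (0 over all genes), with 5 genes higher (9.27%) and 1 lower (8.45%) by at least 0.32. The 4 h array exceeded each of the other 3 by at least 0.32 in 15 genes (1.14%). The histograms give the spread behind these medians.

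**Figure D2:**
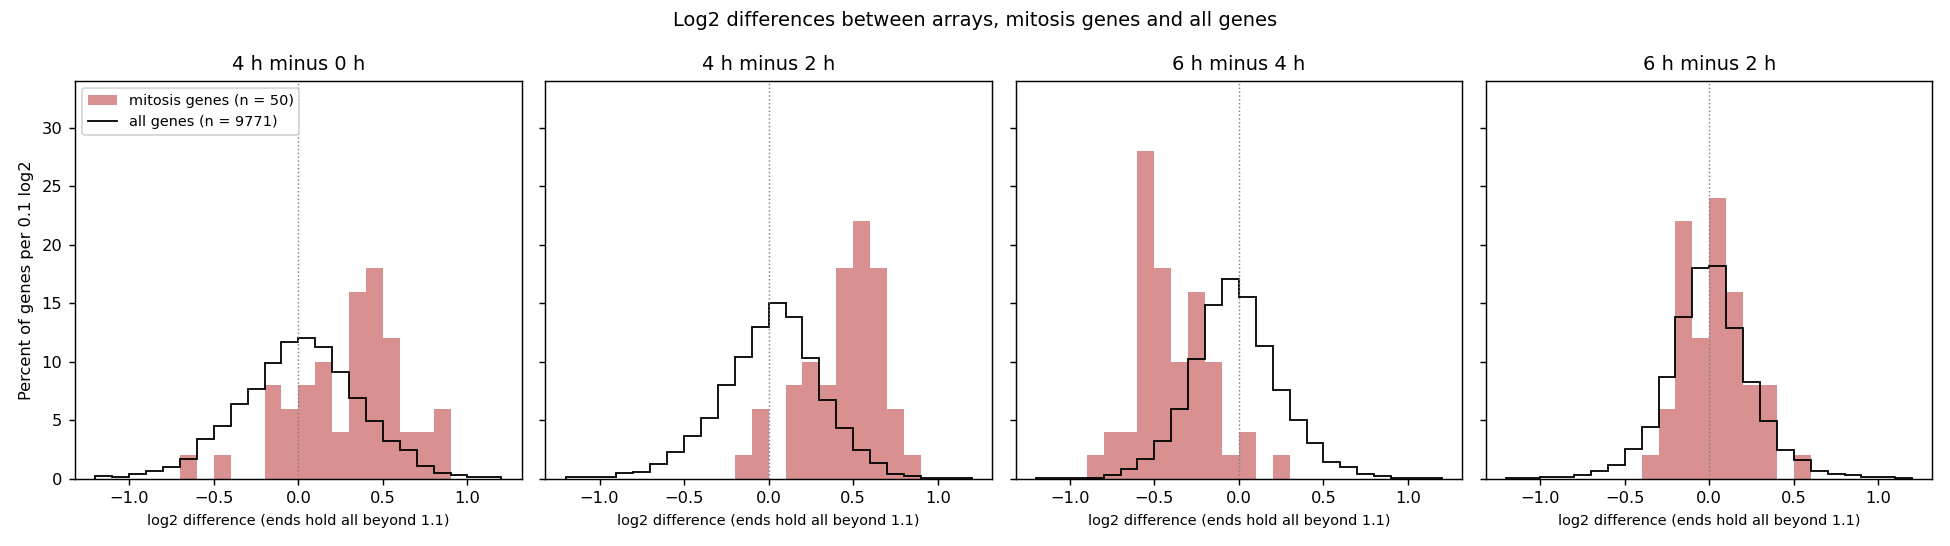
Percent of genes (vertical axis) per 0.1 of log2 difference (horizontal axis) for 4 pairs of arrays, the 50 mitosis genes in red and all 9771 genes as a black line. The mitosis genes lie to the right at 4 h minus 2 h, with a median of 0.48, to the left at 6 h minus 4 h, with a median of -0.44, and over the other genes at 6 h minus 2 h.

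The medians of the mitosis genes relative to all genes were close under both scalings of the arrays. Quantile normalization set the 4 h minus 0 h median of all genes to 0.02, and scaling each array to a common median set it to 0.16. The mitosis genes stood 0.35 and 0.37 above those medians. Median scaling gave 36 mitosis genes higher and 1 lower by at least 0.32 at 4 h than at 0 h, with 31.8% of all genes higher and 9.19% lower. In the intensities as deposited, without any normalization, 42 genes had their highest value at 4 h (31.1% of all genes). In the authors' processed values 39 did (21.4%).

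Promoters of 6 genes are printed to show where the known elements of mitosis genes stand, or are missing. They are a kinesin and a chromosome gene that were high at 4 h against 0 h (KIF11 and TOP2A), the cyclin, kinase and checkpoint partner that stood low at 2 h and 6 h (CCNB1, PLK1 and CDC20), and CKAP2, which was high at 4 h and has none of the letters. Each is 300 bases of GRCh38.p14 from RefSeq, 250 before and 50 after the start, 5′ to 3′ on the gene's strand, with capitals for the CHR letters TTTGAA and TTTAAA and for CCAAT, on either strand (TTCAAA and ATTGG are the opposite-strand forms of TTTGAA and CCAAT).
KIF11 (chr10:92592880-92593179, plus strand): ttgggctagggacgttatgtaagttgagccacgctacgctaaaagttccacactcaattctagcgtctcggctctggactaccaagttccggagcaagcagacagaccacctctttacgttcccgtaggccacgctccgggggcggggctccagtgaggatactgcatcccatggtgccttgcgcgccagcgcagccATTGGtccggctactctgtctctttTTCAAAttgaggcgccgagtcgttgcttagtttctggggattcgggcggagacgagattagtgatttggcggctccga
TOP2A (chr17:40417847-40418146, minus strand): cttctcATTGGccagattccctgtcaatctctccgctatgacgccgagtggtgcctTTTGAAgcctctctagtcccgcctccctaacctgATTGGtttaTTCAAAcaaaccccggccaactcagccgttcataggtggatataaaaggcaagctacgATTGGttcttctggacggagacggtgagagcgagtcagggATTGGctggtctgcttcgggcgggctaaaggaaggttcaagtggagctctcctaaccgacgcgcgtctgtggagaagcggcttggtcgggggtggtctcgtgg
CCNB1 (chr5:69166900-69167199, plus strand): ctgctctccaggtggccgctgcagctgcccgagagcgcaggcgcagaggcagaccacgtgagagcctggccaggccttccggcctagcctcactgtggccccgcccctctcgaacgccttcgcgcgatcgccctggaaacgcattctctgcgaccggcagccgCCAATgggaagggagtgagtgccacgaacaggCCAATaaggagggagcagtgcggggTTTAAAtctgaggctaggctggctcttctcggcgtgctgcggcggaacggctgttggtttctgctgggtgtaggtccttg
PLK1 (chr16:23678639-23678938, plus strand): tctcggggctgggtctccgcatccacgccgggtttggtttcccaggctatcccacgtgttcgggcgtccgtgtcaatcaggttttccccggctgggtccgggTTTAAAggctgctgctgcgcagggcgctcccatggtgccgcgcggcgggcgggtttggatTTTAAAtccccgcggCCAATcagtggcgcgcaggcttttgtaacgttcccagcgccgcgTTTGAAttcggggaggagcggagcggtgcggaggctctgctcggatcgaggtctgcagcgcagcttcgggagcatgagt
CDC20 (chr1:43358731-43359030, plus strand): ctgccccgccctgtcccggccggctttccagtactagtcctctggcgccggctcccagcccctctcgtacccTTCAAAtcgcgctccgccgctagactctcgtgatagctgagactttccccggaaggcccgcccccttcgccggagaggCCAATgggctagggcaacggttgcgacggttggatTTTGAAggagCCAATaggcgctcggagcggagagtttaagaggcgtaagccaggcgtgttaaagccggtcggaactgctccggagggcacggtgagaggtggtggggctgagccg
CKAP2 (chr13:52455738-52456037, plus strand): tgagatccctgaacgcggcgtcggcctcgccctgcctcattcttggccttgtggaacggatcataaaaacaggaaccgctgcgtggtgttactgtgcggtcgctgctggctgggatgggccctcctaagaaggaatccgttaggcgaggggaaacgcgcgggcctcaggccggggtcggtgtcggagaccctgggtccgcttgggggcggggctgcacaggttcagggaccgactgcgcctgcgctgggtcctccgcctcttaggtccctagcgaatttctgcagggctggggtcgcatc

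Of the 50 genes, 42 had a promoter entry, 8 of them with several starts, and BUB3, RACGAP1, TPX2, PBK, AURKA, BIRC5, UBE2C and TTK had none. TTTGAA stood on either strand in the promoters of 29 of the 42 genes (69.0%), against 13.4% of the 8090 detected genes with an entry. For TTTAAA it was 15 genes (35.7%, against 10.5%) and for CCAAT 33 genes (78.6%, against 43.9%). Per promoter, TTTGAA was in 32 of 54 entries of the mitosis genes (59.3%) and in 15.2% of all 35116 entries of that length, TTTAAA in 16 (29.6%, against 12.2%) and CCAAT in 38 (70.4%, against 34.6%). The E2F letters TTTCCCGC and TTTGGCGC were in 1 mitosis gene each (2.4%), against 3.5% and 1.3% of the detected genes. Both counts were near those shares. In KIF11 the opposite-strand TTTGAA began 28 bases before the start, in PLK1 TTTGAA began 29 bases and in CCNB1 TTTAAA 30 bases before it. The 35 genes with TTTGAA or TTTAAA had a median log2 difference of 0.51 for 4 h minus 2 h and -0.44 for 6 h minus 4 h. The 7 with neither (AURKB, BUB1, CCNA2, CKAP2, KIF22, MELK and NEK2) had 0.41 and -0.51. A match of letters is a description of these windows and not a binding site.

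Among the cyclins, CDK1 and its phosphatases, 6 of 7 genes were higher at 4 h than at 2 h and 6 of 7 were lower at 6 h than at 4 h. CCNB1, the cyclin that carries cells into mitosis, had signals of 574, 427, 600 and 390 intensity units at 0, 2, 4 and 6 h in the authors' processed values. After background correction and normalization here, on the log2 scale of all values that follow, it read 9.06, 8.59, 9.13 and 8.44 at those times. The 0 h and 4 h arrays were thus the high ones for CCNB1, and 4 h exceeded 0 h by only 0.07. Its partner kinase CDK1 stood at 10.13, 9.58, 10.03 and 9.45, with 4 h minus 0 h at -0.10, a sign that turned to 0.05 in the highest of the 7 other ways of processing. CCNA2, cyclin A, which acts from S phase to early mitosis, read 10.13, 10.18, 10.59 and 10.09. There only the 4 h array stood apart, by 0.41 over the next highest. CCNF, an F-box cyclin of the SCF ubiquitin ligase, was the lowest of the group at 4 h against 0 h, with 9.50, 9.03, 9.33 and 8.85. CDC25B, the phosphatase known to start CDK1 activation at the centrosome, had 10.00, 10.47, 10.44 and 10.50. Its 3 treated arrays were level and above 0 h, which set it apart from the pattern of the other 6.

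All 8 mitotic kinases were higher at 4 h than at 2 h and lower at 6 h than at 4 h. Over all genes, 3920 of 9771 had both steps. The medians of the kinases were 0.49 for 4 h minus 2 h and -0.49 for 6 h minus 4 h. AURKA, the centrosomal Aurora kinase that drives spindle assembly, read 10.50, 10.59, 11.04 and 10.89. MELK, a kinase of proliferating cells, read 10.41, 10.44, 10.94 and 10.81. At 6 h AURKA stood 0.39 and MELK 0.40 above 0 h, and on their second probes 0.23 and 0.10. PLK1, the Polo kinase needed for spindle formation and mitotic exit, read 7.80, 6.99, 7.73 and 7.18, so that the 2 h array was 1.76 times lower than 0 h and the 4 h array 1.68-fold above 2 h. NEK2, which splits centrosomes, read 9.68, 9.16, 9.85 and 9.26, the 2 h and 6 h arrays again being the low ones. The other 4 (AURKB, TTK, BUB1 and PBK) had 4 h minus 2 h differences of 0.25 to 0.53.

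The checkpoint and anaphase genes were the most mixed of the 7 role groups by count, with 7 of 9 higher at 4 h than at 2 h. CDC20, the activator that the checkpoint restrains, gave signals of 3137, 1437, 2173 and 1445 intensity units as deposited and log2 values of 11.60, 10.50, 10.99 and 10.42. The untreated array was above every treated one, 2.15 times at 2 h, 1.53 times at 4 h and 2.27 times at 6 h, yet 4 h still stood 0.49 above 2 h. CDC20 had 1 detected probe. CDCA3, a trigger of WEE1 degradation, read 8.36, 8.52, 8.89 and 8.43, and the checkpoint kinase-like BUB1B read 7.33, 7.13, 7.75 and 7.50. ESPL1, separase, which cuts the cohesin ring, was highest at 2 h, with 7.99, 8.55, 8.40 and 8.18. ESPL1 and FZR1 were chosen for naming after their values were seen. FZR1, the activator of late mitosis and G1, read 7.49, 7.11, 7.07 and 7.30. Its 2 h and 4 h arrays were close, with a 4 h minus 2 h difference of -0.04 that reached 0.04 in another way of processing. MAD2L1, the checkpoint protein MAD2, read 10.36, 10.49, 10.72 and 10.31, and PTTG1, securin, 11.29, 10.99, 11.21 and 10.77.

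Of the 8 kinesins, 7 had their highest value at 4 h. KIF11 (Eg5), the motor that pushes spindle poles apart, had deposited signals of 563, 658, 1068 and 785 intensity units and log2 values of 9.12, 9.30, 9.93 and 9.49. At 4 h it stood 0.81 above 0 h, beside 0.80 for TOP2A and for NUF2, and 0.72 with the mean over its probes, and both neighbouring arrays lay below. KIF4A, a chromosome-borne motor, read 7.63, 7.91, 8.36 and 7.80, 1.67-fold higher at 4 h than at 0 h. KIF20A, a motor of cytokinesis, had 9.25, 9.0, 9.56 and 9.0, and KIF23, a subunit of centralspindlin, 8.66, 8.17, 8.97 and 8.71. In KIF23 the 2 h array was low and the step to 4 h was 0.80, or 0.68 with the mean over its probes. KIF22, a chromosome-arm motor, was the exception at 8.77, 8.66, 8.58 and 8.63, with 0 h highest and a 4 h minus 0 h difference of -0.19 that reached 0.01 in another way of processing.

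All 5 centromere and kinetochore genes were highest at 4 h. NUF2, a subunit of the NDC80 complex that grips microtubules, read 6.69, 6.82, 7.50 and 6.61 and stood 0.68 above the next highest array. Its partner NDC80 read 8.49, 8.47, 8.99 and 8.76. The histone variant CENPA, which marks centromeres, had 8.49, 8.32, 8.93 and 8.35, the kinetochore motor CENPE 8.78, 8.66, 9.19 and 8.80, and the kinetochore protein CENPF 9.79, 9.57, 9.99 and 9.46. In CENPA and CENPE the other 3 arrays were close together, and in CENPF 0 h lay between 4 h and the low 2 h and 6 h arrays.

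The 7 genes of spindle assembly and chromosome structure were likewise all highest at 4 h, with a median of 0.53 over 0 h. TOP2A, the topoisomerase that untangles sister chromatids, had deposited signals of 1242, 1583, 2323 and 1561 intensity units and log2 values of 10.30, 10.64, 11.10 and 10.54. CKAP2, a microtubule-associated protein, read 8.68, 8.85, 9.45 and 8.94. At 4 h TOP2A was 1.74-fold and CKAP2 1.70-fold above 0 h. The hyaluronan receptor HMMR, which also binds spindle microtubules, read 8.45, 8.19, 8.64 and 8.28. NUSAP1, which bundles microtubules near chromosomes, had the smallest 4 h minus 0 h difference of the group, 0.05, from 10.77, 10.16, 10.82 and 10.26. As in CCNB1, its 0 h and 4 h arrays were high and its 2 h and 6 h arrays low.

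All 6 genes of the chromosomal passenger complex and cytokinesis were higher at 4 h than at both 2 h and 6 h. Over all genes, 3920 of 9771 were. PRC1, which bundles the microtubules of the midzone, read 10.46, 10.41, 11.09 and 10.78. ANLN, anillin of the cleavage furrow, read 8.44, 8.86, 9.02 and 8.95, with all treated arrays above 0 h by 0.42 to 0.58. BIRC5, survivin, the passenger subunit that docks on centromeres, read 8.69, 7.93, 8.54 and 7.83. Its 2 h and 6 h arrays were 1.69 and 1.82 times lower than 0 h, while 4 h was 1.11 times lower, a difference of -0.15 that reached 0.05 in another way of processing. CDCA8, ECT2 and RACGAP1 had 4 h minus 2 h differences of 0.14, 0.51 and 0.61. The plot of steps gives both differences for each gene.

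**Figure D3:**
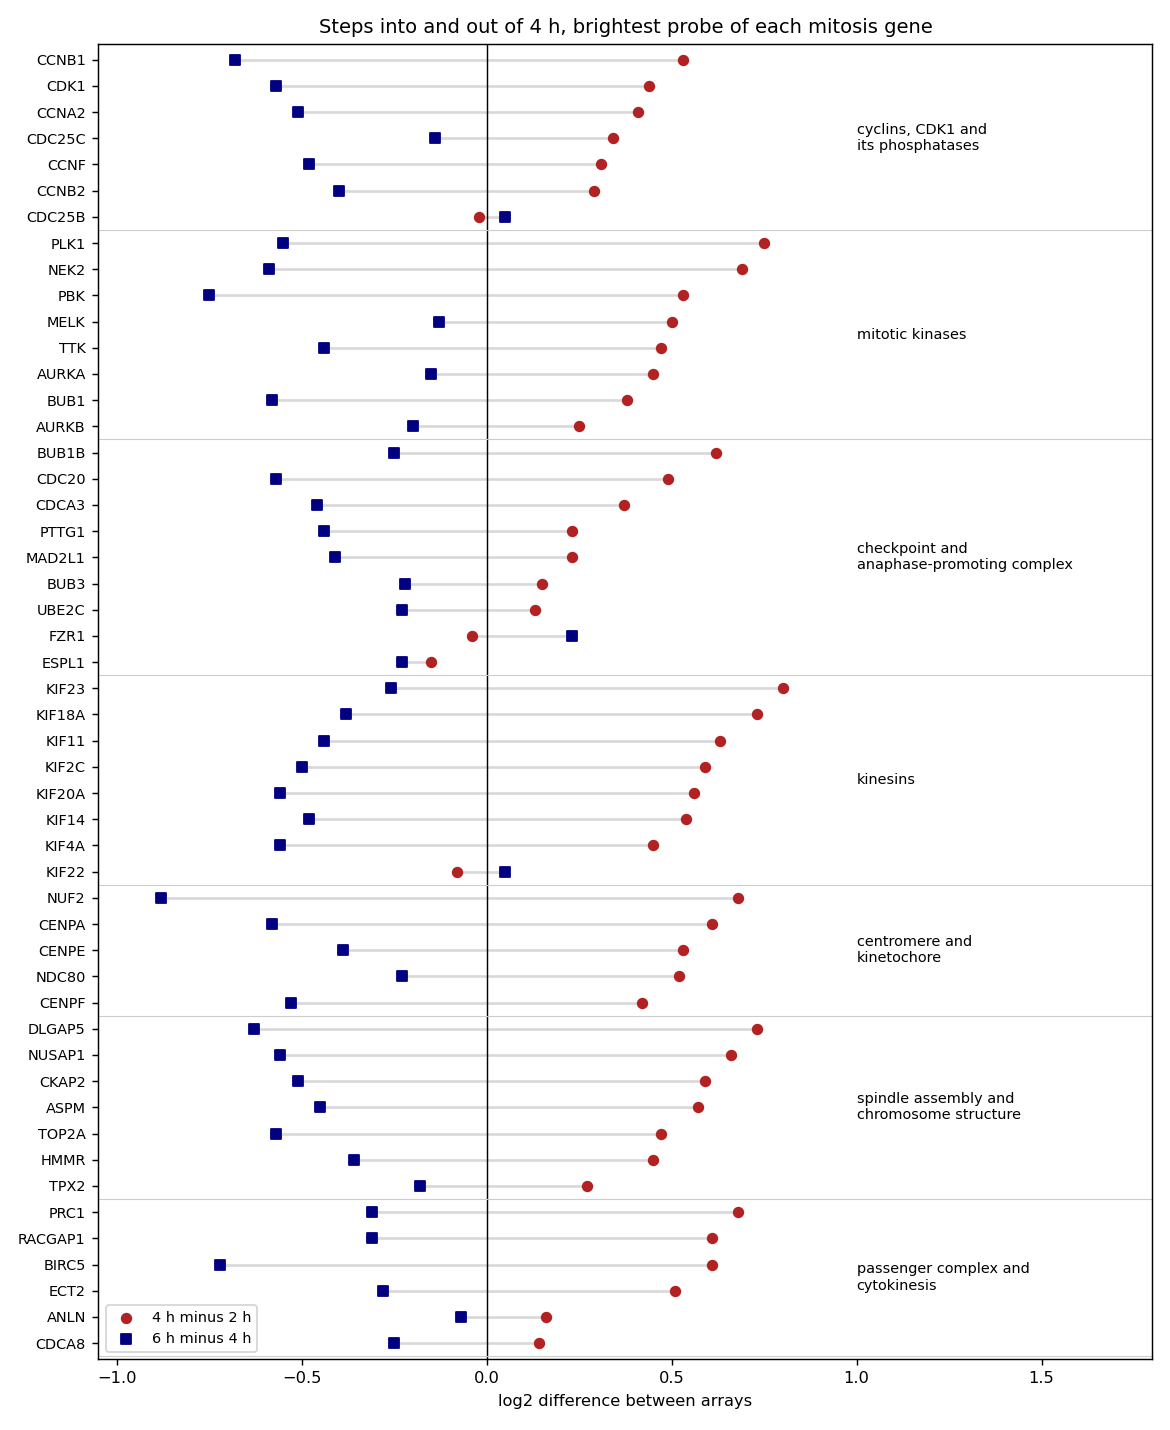
Log2 difference between arrays (horizontal axis) for each of the 50 mitosis genes (vertical axis, by role), circles for 4 h minus 2 h and squares for 6 h minus 4 h. Circles lie right of 0 in 46 genes and squares left of 0 in 47, and CDC25B, ESPL1, FZR1 and KIF22 hold the circles left of 0, of which CDC25B, FZR1 and KIF22 reach 0.11, 0.04 and 0.04 in other ways of processing.

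Second probes of a gene gave another reading on the same arrays. The sequences of the probes were not analysed here, so how far the probes of a gene lie apart or overlap is unknown. Of 74 probes, 67 were detected on at least 1 array, and 15 of the 50 genes had several. Every detected probe was higher at 4 h than at 0 h in 10 of these 15 genes (33.6% of 2336 genes with several detected probes). Every probe was higher at 4 h than at 2 h in 14 (29.2%), and every probe was lower at 6 h than at 4 h in 14 (30.5%). MAD2L1 is in both counts of 14, but its second probe was detected at 4 h alone, so it entered the 15 genes through that array. The second KIF23 probe was not detected at 0 h. Every probe was highest at 4 h in 10 (7.92%). Of the 67 probes, 65 of them detected on all 4 arrays, 51 had their highest value at 4 h. The share over all detected probes was not computed. KIF11 read 9.33, 9.01, 9.96 and 9.31 on its second probe, 0.63 above 0 h at 4 h, and AURKA 10.38, 10.41, 10.86 and 10.60, 0.48 above. MELK had 9.52, 9.40, 9.88 and 9.62. For these 3 genes the second probe repeated the higher value at 4 h.

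In other genes the probes parted, and the pair of arrays in which they did so varied. The second CENPE probe read 7.14, 6.66, 7.10 and 6.44, hence -0.04 for 4 h minus 0 h against 0.41 on the first, yet 0.44 and 0.53 for 4 h minus 2 h. CKAP2 read 8.54, 8.09, 8.68 and 8.41 on its second probe, 0.14 for 4 h minus 0 h against 0.77 on the first, and 0.59 for 4 h minus 2 h on both. The second CENPA probe had 7.64, 7.47, 7.78 and 7.64, with 4 h minus 0 h at 0.15 against 0.44 on the first and 6 h minus 4 h at -0.14 against -0.58. CDK1 had 7.63, 7.35, 7.63 and 7.20 on its second probe, where 0 h and 4 h were equal, and the 2 h and 6 h arrays were low on both. CDC25C, the phosphatase of mitotic entry, read 7.58, 7.50, 7.84 and 7.69 on its brightest probe, 7.37, 7.37, 7.77 and 7.64 on another and 7.24, 7.01, 7.32 and 7.06 on the remaining probe, each highest at 4 h.

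NUSAP1 read 9.06, 8.98, 9.28 and 9.09 on its second probe, and NEK2 6.84, 6.88, 7.18 and 7.0, each highest at 4 h but with a 2 h array close to 0 h where the first probe had shown it low. Their 4 h minus 2 h differences were 0.31 and 0.30 on these probes, against 0.66 and 0.69 on the first. HMMR had 8.42, 7.94, 8.51 and 7.96. The second KIF23 probe, not well above background at 0 h, read 6.80 at 4 h and 6.23 at 2 h, and the second MAD2L1 probe was detected at 4 h alone. PTTG1 was the exception for the step from 2 h, with 10.43, 10.42, 10.29 and 10.11 on its second probe, hence -0.13 for 4 h minus 2 h against 0.23 on the first. BUB3, a checkpoint protein with 3 detected probes, was the exception for the step to 6 h. Its brightest probe read 13.01, 12.85, 13.00 and 12.77 and another 9.86, 9.62, 9.86 and 9.60, but the remaining probe read 9.93, 10.53, 10.58 and 10.58. With probes detected on all 4 arrays alone, the counts of genes in which every probe took the same step were 9, 12 and 12 of 13. They are for 4 h over 0 h, 4 h over 2 h and 6 h under 4 h. The shares among the 2021 genes of that filter were not computed, and those given above belong to detection on at least 1 array.

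How far the probes of a gene lay apart depended on the pair of arrays. The median range between probes over the 15 genes was 0.18 for 4 h minus 0 h, 0.37 for 2 h minus 0 h and 0.38 for 6 h minus 0 h, against 0.19 for 4 h minus 2 h, 0.21 for 6 h minus 4 h and 0.11 for 6 h minus 2 h. Over all 2336 genes with several probes the ranges were 0.26, 0.35, 0.34, 0.23, 0.19 and 0.15 in the same order, taking 4 h, 2 h and 6 h minus 0 h first. In both sets the range was largest for 2 h and 6 h minus 0 h and smallest for 6 h minus 2 h. The low 2 h and 6 h values of CCNB1, PLK1, CDC20, BIRC5, CCNF and PBK against 0 h each rest on 1 detected probe.

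**Figure D4:**
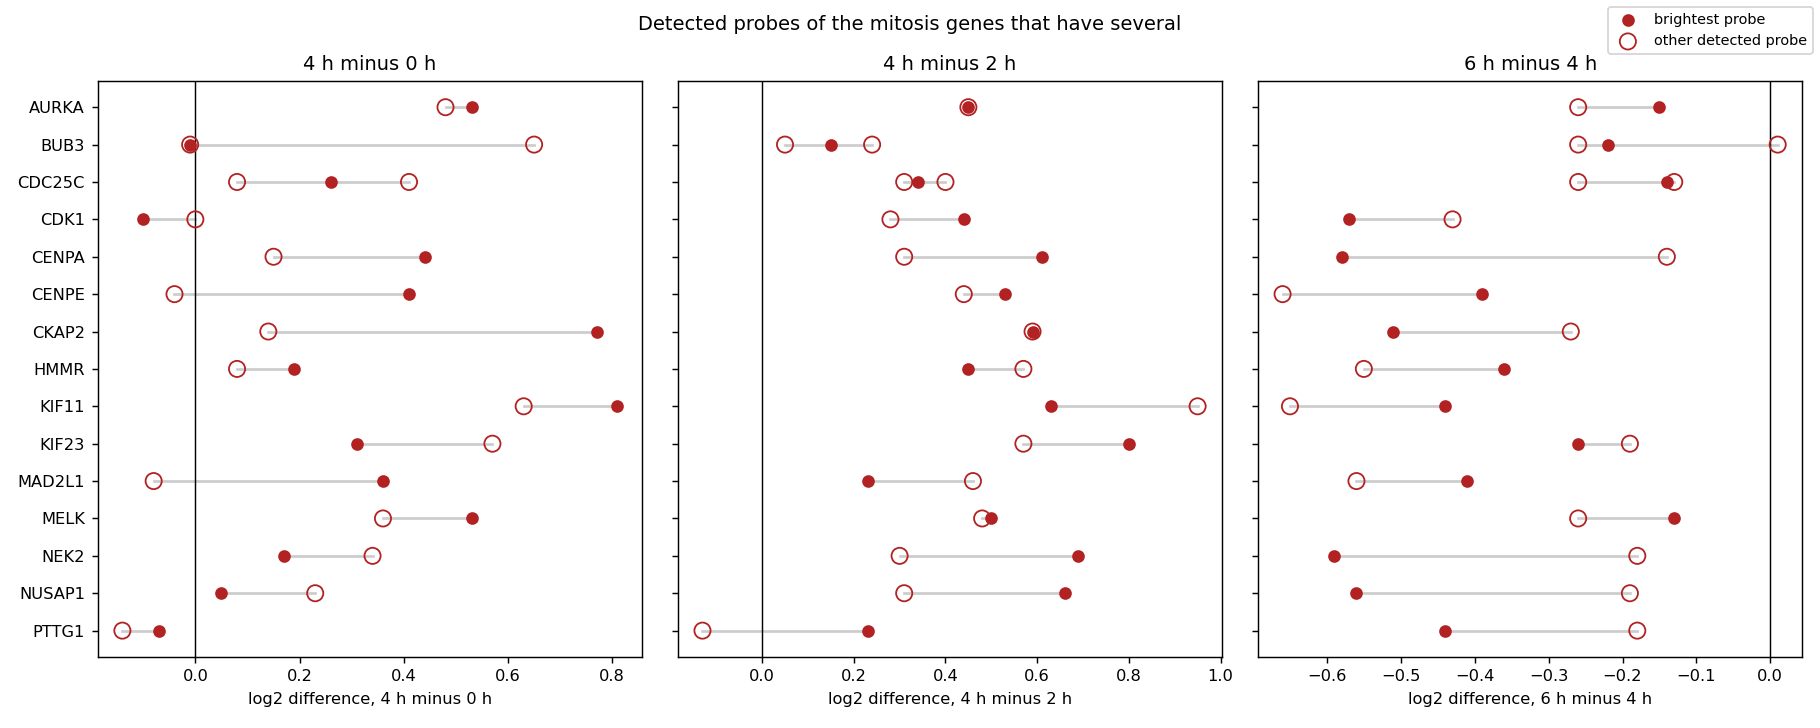
Log2 difference (horizontal axis) on each detected probe of the 15 mitosis genes that have several (vertical axis), filled circles for the brightest probe and open circles for the others, in panels for 4 h minus 0 h, 4 h minus 2 h and 6 h minus 4 h. Every circle lies right of 0 in 14 genes at 4 h minus 2 h and left of 0 in 14 genes at 6 h minus 4 h, while 10 genes have every circle right of 0 at 4 h minus 0 h. MAD2L1, with a second probe detected at 4 h alone, is in both counts of 14.

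Over the whole array, genes were ranked by how far 4 h lay above the highest of the other 3 arrays. Of the first 10 genes, NUF2 at 0.68 and DLGAP5, a spindle protein known as HURP, at 0.53 were mitosis genes of the list. The others included TROAP, a spindle-associated protein, at 0.73, CENPQ, a kinetochore protein, at 0.65, and MZT1, a partner of the gamma-tubulin ring, at 0.58. BTNL9 at 0.54 and XAB2 at 0.53 were, like these, detected on all 4 arrays. The remaining 3 were not: ABCA11P and GPATCH8 were detected at 4 h alone and MDM4 at 2 h and 4 h, so they entered through the arrays where they are high and no difference is given. Each of the 10 had 1 detected probe. The first 50 genes held 10 of the 50 mitosis genes and the first 100 held 15, which is 30% of the mitosis genes in 1.02% of the 9771. Of those 100 genes, 80 were detected on all 4 arrays and 16 at 4 h alone. The ranking uses the 4 h rise that was named beforehand for this list, so these counts describe that rise and do not test it.

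Other genes of cell division were taken from 8 further lists. Their counts at a difference of 0.32 stand beside 18.2% higher and 16.9% lower of all genes for 4 h minus 0 h, and 13.9% and 12.6% for 4 h minus 2 h. Other kinesins and spindle genes had a median of 0.28 for 4 h minus 0 h, with 12 of 32 higher and 1 lower by at least 0.32. DEPDC1 was the highest at 7.82, 7.76, 8.75 and 8.36, and PSRC1 the lowest at 9.31, 8.51, 8.86 and 8.53, while its second probe, not well above background at 0 h, read 6.30, 6.33 and 6.42 at 2, 4 and 6 h. TROAP had 8.51, 8.24, 9.30 and 8.57. Condensin and cohesin genes had a median of 0.27, with 5 of 16 higher and 0 lower. The cohesin subunits STAG2 and SMC3 stood at 0.64 each at 4 h and 0.66 and 0.75 at 6 h, so neither was lower at 6 h, although a second SMC3 probe gave 0.40 and 0.04. SMC1A, counted among the 5, was not well above background at 0 h and 2 h, and NCAPD2 was lowest at -0.10.

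Other centromere and kinetochore genes had a median of 0.06 for 4 h minus 0 h, with 8 of 34 higher and 4 lower, and 0.23 for 4 h minus 2 h, with 12 higher and 2 lower. CENPQ read 7.08, 6.78, 7.78 and 7.13, and CENPB 12.20, 11.38, 11.53 and 11.10, lowest of the list at -0.67. Subunits and partners of the anaphase-promoting complex had a median of -0.07, with 0 of 15 higher and 4 lower. FBXO5 (EMI1), an inhibitor of that complex, had the highest difference, with 4 h the high array, at 9.59, 9.25, 9.90 and 9.08. ANAPC11, its RING subunit, was lower in all treated arrays, at 10.19, 9.66, 9.43 and 9.32, and its second probe read 9.62, 9.23, 9.02 and 9.01.

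Among the regulators of these genes, FOXM1, the factor that activates G2 and mitosis genes, read 8.18, 8.74, 8.80 and 8.56, and 7.22, 7.64, 7.77 and 7.68 on its second probe, so the treated arrays were all above 0 h. MYBL2 was not detected. The list of DREAM, MYB-MuvB and FOXM1 regulators had a median of 0.13 for 4 h minus 0 h, with 4 of 15 higher and 2 lower, from RBBP4 at -0.48 to LIN9 at 0.67. A second RBBP4 probe read -0.17. Genes of mitotic entry and exit control had a median of 0.04, with 4 of 21 higher and 2 lower, a share of higher genes near that of all genes. PKMYT1, the kinase that inhibits CDK1, was the highest at 8.55, 9.71, 9.56 and 9.79, with 6.82, 7.21, 7.38 and 7.56 on a second probe, and GADD45B the lowest at -0.41. CDKN1A, the p53-induced inhibitor p21, was level at 12.78, 12.80, 12.79 and 12.95.

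DNA replication and G1/S genes, 33 of them detected, had medians of -0.26 for 2 h minus 0 h, -0.01 for 4 h minus 0 h and -0.30 for 6 h minus 0 h. For 4 h minus 2 h they had 0.25, with 12 higher and 0 lower by at least 0.32, where the mitosis genes had 0.48. The extremes at 4 h against 0 h were MCM2 at 0.45 and CDT1 at -0.77. Replication-dependent histones lay the other way, with a median of -0.52 for 4 h minus 0 h and 6 of 10 lower, from H1-2 at -1.29 to H2BC12 at -0.21. For 6 h minus 4 h the replication and G1/S genes had -0.29, other centromere and kinetochore genes -0.28 and other kinesins and spindle genes -0.22. Lower by at least 0.32 were 14 of 33, 15 of 34 and 12 of 32 (10.6% of all genes), and higher 0, 3 and 0 (10.1%). The remaining lists had medians from -0.15 to 0.03. A fall after 4 h was thus not particular to the mitosis genes. The difference between these lists and the mitosis genes was not tested. The plot of lists sets them side by side.

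**Figure D5:**
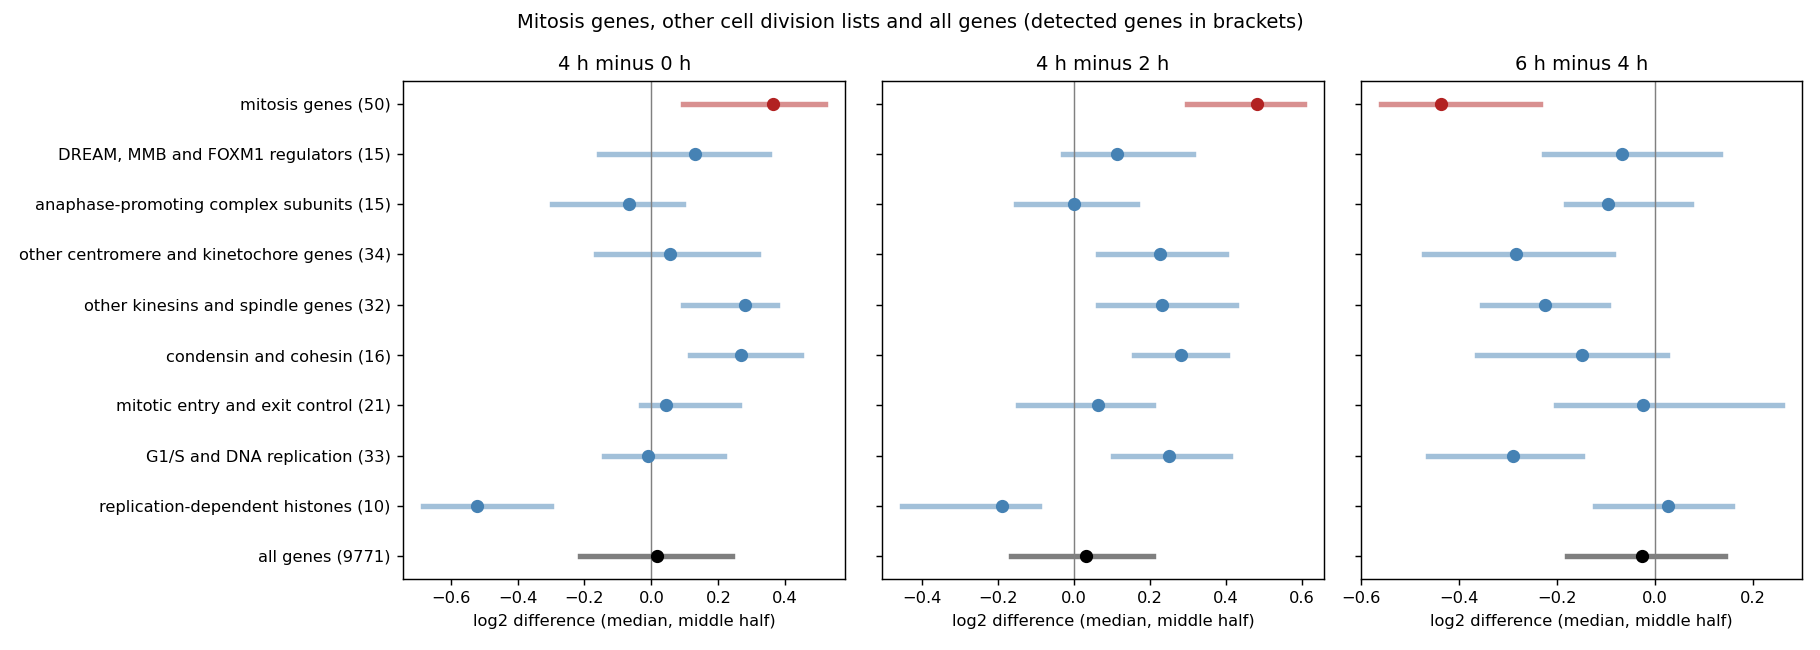
Median (point) and range between quartiles (bar) of the log2 difference (horizontal axis) for the 50 mitosis genes, 8 other cell division lists and all 9771 genes (vertical axis), for 3 pairs of arrays. The mitosis genes have the medians farthest from 0 at 4 h minus 2 h (0.48) and at 6 h minus 4 h (-0.44) of the groups drawn, and at 4 h minus 0 h the histones (-0.52) lie farther from 0 than the mitosis genes (0.36).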

How the data were processed

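Total RNA of 4 cultures, 1 each at 0, 2, 4 and 6 h of 3 µM niclosamide, was hybridized as biotinylated cRNA to 1 Illumina array each, per the labels' protocols. For each probe the authors deposited a non-normalized intensity and, per the file headers, a detection p-value. BeadStudio is named in the submitters' processing notes. The authors' processed intensity values equal a linear quantile normalization of the non-normalized ones within 1.46% at every probe, as checked here. The genome build and annotation are not given in the sources used here. The number of arrays limits the precision.

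The function neqc (limma 3.58.1, R 4.3.3) subtracted background by normexp, using detection p-values to infer the negative controls, then added 16, quantile normalized and took log2. It was tested on simulated data. A gene was represented by the probe of highest mean log2 value among those with a detection p under 0.01 on at least 1 array. Probes took their gene from a platform table, updated through Entrez identifiers: 27578 have 1 symbol, 13 several and 21212 are unnamed here, and 27541 of the first matched RefSeq. Differences were counted from 0.32 on the log2 scale and from 1.5-fold, without a test, and say nothing of chance. The members, lists and thresholds were chosen with earlier results of these data known. Named genes were, per role, the 2 largest and the smallest 4 h minus 0 h difference, members with several detected probes, 8 members always (CCNB1, CDK1, PLK1, AURKA, CDC20, TOP2A, CENPF and KIF20A), the extremes of each other list with FOXM1, MYBL2 and CDKN1A, and the 10 genes farthest above the other arrays at 4 h. ESPL1, FZR1, STAG2 and SMC3 were named outside this rule. Alternatives were median scaling, the authors' values, non-normalized values, an offset of 50, detection on all 4 arrays, no detection filter and the mean over probes.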

Additional observations from a re-analysis of the deposited data

How the results depend on the processing

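No paired analysis was possible because each time has 1 array. Of 142 values of counts and medians recomputed under the alternatives, 128 stayed within 0.1 log2 units (medians) or 1.5 times (counts), and 14 moved. Median scaling gave a median of 0.53 for 4 h minus 0 h and 0.06 for 6 h minus 0 h. By at least 0.32, 1 mitosis gene was lower at 4 h than at 0 h (9.19% of all genes). Higher at 6 h were 13 against 0 h (30.2%) and 8 against 2 h (11.1%). The non-normalized intensities gave 0.48 and 0.05 for the same medians. The same counts were 1 (8.4%), 10 (26.6%) and 8 (11.55%), with 0 genes lower at 6 h than at 2 h (3.4%). The authors' processed values and an offset of 50 each gave 3 genes higher at 6 h than at 2 h (6.8% and 7.2%). The mean over probes gave 3 higher at 6 h than at 0 h (21.5%). Relative to all genes, the mitosis median was compared over the main setting and 7 alternatives. It stayed between 0.33 and 0.37 for 4 h minus 0 h and between 0.44 and 0.48 for 4 h minus 2 h. For 6 h minus 4 h it stayed between -0.43 and -0.38. The mitosis genes highest at 4 h numbered 39 to 45 over these settings. They were 39 in the main setting (21.37% of all genes) and 45 under median scaling (32.32%), so the share of all genes was higher there too. Of single genes, 5 had 4 h minus 0 h differences of both signs (CDK1, PLK1, BUB3, KIF22 and BIRC5), each within 0.21 of 0. The cause of these shifts was not tested. Second probes checked 15 of 50 genes, and the rest had 1 detected probe.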
